A study of Mus musculus with 45 samples.

Results

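The T cell receptor signalling and lineage genes described here are 30 mouse genes, taken by symbol from a table of 47729 genes and followed through 45 CT26 tumours in 15 treatment groups of 3. They comprise 7 receptor and CD3 chains, 3 coreceptors, 8 kinases and cytosolic adaptors, 5 transmembrane adaptors and negative regulators, 5 surface molecules and 2 transcription factors. CT26 is a colon carcinoma line of BALB/c mice. All tumours grew in HuGEMM mice on that background, which carry human PD-1 and human TIGIT as a double knock-in, vehicle mice included, and they are of 1 cell line. Injections into the peritoneum began on day 8 and were given 2 times a week, with saline as the vehicle. In the experiment T2106 the groups were serplulimab with HLX53 at 10 mg/kg, serplulimab with HLX53 at 5 mg/kg, pembrolizumab with tiragolumab, serplulimab, HLX53 and vehicle, and every antibody other than HLX53 in the second of these was given at 10 mg/kg. T2215 crossed a PD-1 antibody (serplulimab, pembrolizumab or none) with a TIGIT antibody (HLX53, tiragolumab or none), each at 10 mg/kg, which makes 8 antibody groups and vehicle. Serplulimab and pembrolizumab bind PD-1, and HLX53 and tiragolumab target TIGIT. PD-1 and TIGIT are inhibitory receptors on T cells.

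The alpha and beta chains of the T cell receptor bind peptide on MHC molecules but carry no signalling tail of their own. The CD3 gamma, delta, epsilon and zeta chains carry the signal inward, where Lck, brought by the coreceptors CD4 or CD8, phosphorylates them and Zap70 docks on the result. Zap70 then phosphorylates the adaptors Lat and Lcp2 (SLP-76), from which calcium, Ras and NF-kappa B signalling branch. In a tumour these transcripts are used as a measure of T cells among the other cells.

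Values are FPKM, a read count scaled to gene length and library, so levels can be set side by side between genes and between tumours of an experiment. The scaling does not make libraries fully alike, as their sums over all genes were 678636 to 911201 FPKM. Differences were tested with limma on log2(FPKM + 0.5), with p-values adjusted over all tested genes of a table and 0.05 as the threshold. A gene was tested where at least 3 libraries reached 0.5 FPKM. Of the 30 members, 29 passed that minimum in T2106 (not Trat1) and 27 in T2215 (not Trat1, Sit1 or Bcl11b). Each library held 12918 to 14448 genes at the minimum. The median correlation of a library with the others of its table was 0.838 to 0.984. It lay under 0.9 in 4 libraries: replicates 1 and 3 of serplulimab with HLX53 at 10 mg/kg and replicate 2 of the 5 mg/kg group in T2106, and replicate 2 of serplulimab with HLX53 in T2215. Skeletal muscle markers were raised in replicate 2 of the 5 mg/kg group, and in T2215 in replicate 1 of serplulimab, replicate 2 of serplulimab with tiragolumab and replicate 3 of pembrolizumab with tiragolumab. The p-values measure the spread between tumours.

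The genes of 3 CD3 chains lie side by side on mouse chromosome 9, and the sequences just upstream of them are shown because these genes varied together in the tumours. Cd3g (ENSMUSG00000002033) spans chr9:44969572-44980431 on the minus strand, Cd3d (ENSMUSG00000032094) chr9:44981786-44987339 on the plus strand and Cd3e (ENSMUSG00000032093) chr9:44998740-45009627 on the minus strand, in GENCODE M21 on GRCm38. Between Cd3g and Cd3d lie 1354 bases. The 250 bases before each RefSeq start site (GRCm38.p6, read 5′ to 3′ in the direction of the gene) follow, with capitals marking GGAAGT, the core of ETS factor sites, searched on both strands and here read from the opposite one.
Cd3g, chr9:44980432-44980681, minus strand: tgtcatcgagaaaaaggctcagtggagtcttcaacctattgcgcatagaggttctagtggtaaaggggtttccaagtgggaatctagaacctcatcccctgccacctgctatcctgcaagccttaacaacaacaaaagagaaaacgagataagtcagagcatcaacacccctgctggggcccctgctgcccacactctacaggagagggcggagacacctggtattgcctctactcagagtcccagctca
Cd3d, chr9:44981536-44981785, plus strand: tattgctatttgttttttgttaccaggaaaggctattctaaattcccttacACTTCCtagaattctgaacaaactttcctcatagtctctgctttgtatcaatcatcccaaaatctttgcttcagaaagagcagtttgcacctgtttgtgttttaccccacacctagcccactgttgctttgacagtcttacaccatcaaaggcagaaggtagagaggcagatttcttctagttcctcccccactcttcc
Cd3e, chr9:45009612-45009861, minus strand: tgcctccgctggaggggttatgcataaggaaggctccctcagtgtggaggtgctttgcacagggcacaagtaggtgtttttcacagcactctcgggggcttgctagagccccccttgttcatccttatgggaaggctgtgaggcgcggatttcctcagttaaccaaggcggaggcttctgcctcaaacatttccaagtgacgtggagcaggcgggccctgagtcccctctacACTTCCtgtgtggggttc
The Cd3d and Cd3e windows each held the motif in 1 place and the Cd3g window held none. Of 19 members with a promoter in the RefSeq table, 7 held it (36.8%), against 22.2% of 27025 genes with a promoter there. The core of RUNX factor sites, TGTGGT, also searched on both strands, was in 3 of the 19 (15.8%), against 15.9% of all. These matches are a description of the letters only.

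Levels differed widely between members. In vehicle tumours of T2106, Thy1, a surface glycoprotein of mouse T cells that other cells also carry, averaged 29.2 ± 14.3 FPKM (SD, n = 3) and Fyb, an adaptor that binds Lcp2, averaged 26.2 ± 5.45 FPKM. The antigen receptor chains Trbc2 and Trac averaged 13.7 ± 4.33 and 8.11 ± 0.475 FPKM. At the lower end Themis, a regulator of T cell selection in the thymus, averaged 0.452 ± 0.202 FPKM and Bcl11b, a transcription factor of T lineage commitment, averaged 0.171 ± 0.0354 FPKM. Trat1, a transmembrane adaptor of the receptor complex, averaged 0.0966 ± 0.13 FPKM and reached at most 0.472 FPKM in any tumour of T2106. The order was similar in vehicle tumours of T2215, with Thy1 at 39.2 ± 8.36 FPKM at the top and Trat1 at 0.106 ± 0.0717 FPKM at the bottom.

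**Figure D1:**
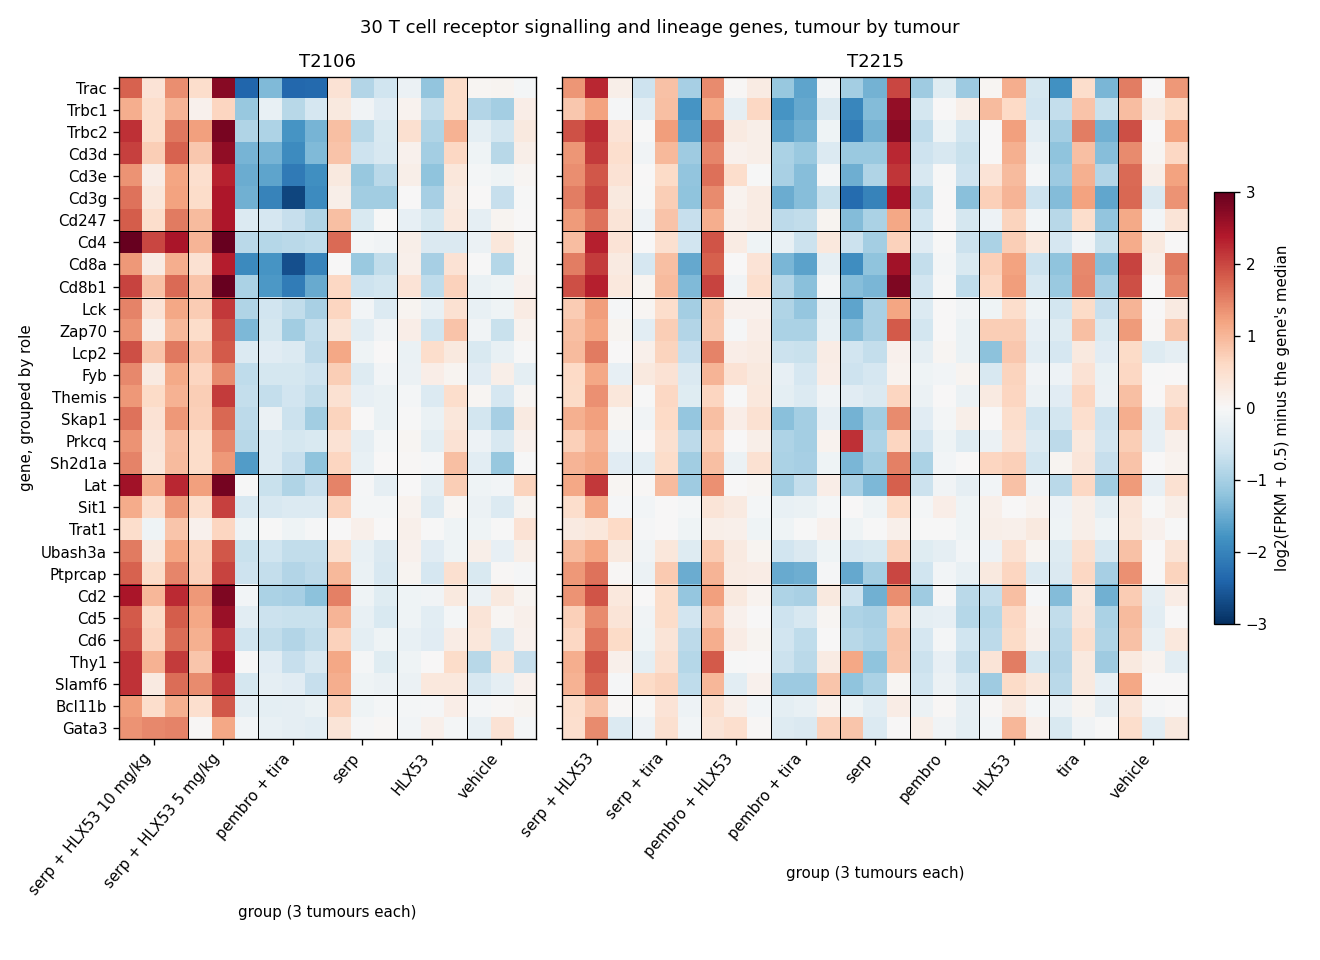
Each cell of the map is 1 gene in 1 tumour, as log2(FPKM + 0.5) minus the median of that gene over the tumours of its experiment (red higher, blue lower, scale ends at 3 in either direction); genes run down by role and groups of 3 tumours run across, with vehicle at the right. Whole columns are red or blue together, and the 3 tumours given serplulimab with HLX53 at 10 mg/kg are red for nearly all genes.

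In T2106 tumours of the 10 mg/kg combination (serplulimab plus HLX53), all 29 tested members were higher in each of the 3 treated tumours than in any of the 3 vehicle tumours. Such a separation upward was seen in 31.6% of all tested genes. In limma, 11 of 29 members rose past the adjusted threshold and none fell, against 44.0% of all tested genes called in either direction and 23.4% called higher and 20.6% called lower. The median log2 fold change was 1.38 over the members and −0.04 over all genes. More RNA per T cell, more T cells and RNA from other cells that carry some of these transcripts cannot be told apart in bulk tumour RNA.

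Among the receptor and CD3 chains 1 of 7 rose, against 23.4% of all genes called higher. This was Trbc1, a constant region of the receptor beta chain. It had 32.6, 22.0 and 31.1 FPKM in the 10 mg/kg tumours, against 7.92, 7.17 and 17.3 FPKM in vehicle tumours, a log2 fold change of 1.45 ± 0.44 (SE; limma, adjusted p = 0.0205). Trac, the alpha constant region, had 28.3, 10.6 and 21.8 FPKM with treatment and 8.28, 8.47 and 7.57 FPKM with vehicle. The treated tumours all lay above vehicle. Trac did not pass (log2 fold change 1.16 ± 0.90, limma adjusted p = 0.286). That SE pools the spread within all groups of T2106, among them 5 mg/kg tumours with 11.65, 55.25 and 1.13 FPKM of Trac. Cd3e, the epsilon chain, had 10.8, 4.60 and 9.5 FPKM in treated tumours and 3.74, 3.55 and 4.06 FPKM in vehicle tumours (log2 fold change 0.96 ± 0.71, limma adjusted p = 0.265). Trbc2, the other beta constant region, and the CD3 chains Cd3d, Cd3g and Cd247 (zeta) had log2 fold changes of 1.29 to 1.79 with limma adjusted p from 0.0567 to 0.144.

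Of the coreceptors, Cd4, which marks helper and regulatory T cells and is also made by some mouse myeloid cells, rose most of all members. It had 12.3, 4.96 and 6.83 FPKM in the 10 mg/kg tumours, against 0.692, 1.22 and 0.907 FPKM in vehicle tumours. The lowest treated tumour was above the highest vehicle tumour, and the log2 fold change was 2.49 ± 0.72 (limma adjusted p = 0.0188). Cd8a, the alpha chain of the coreceptor of cytotoxic T cells, had 15.1, 7.02 and 13.0 FPKM in treated and 5.84, 2.996 and 6.08 FPKM in vehicle tumours. The groups did not overlap, but Cd8a and its partner Cd8b1 did not pass (log2 fold changes 1.15 ± 0.77 and 1.61 ± 0.74, limma adjusted p = 0.218 and 0.0853). The ratio of Cd4 to Cd8a was 0.815, 0.706 and 0.526 in the 10 mg/kg tumours and 0.118, 0.407 and 0.149 in vehicle tumours, again without overlap.

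**Figure D2:**
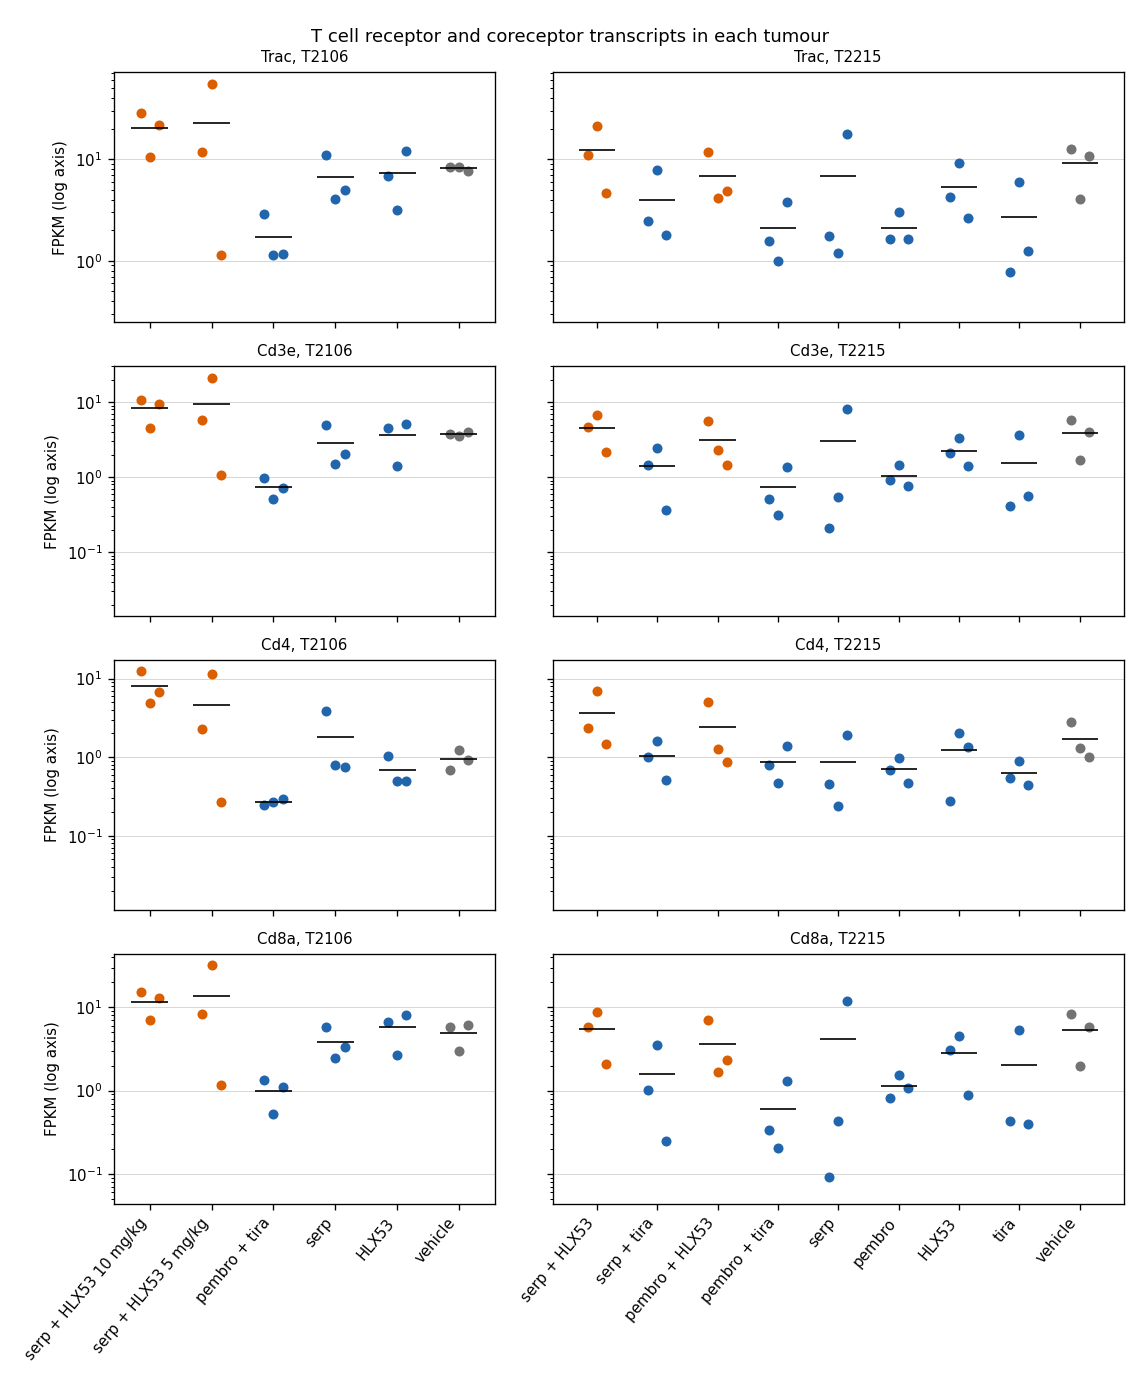
FPKM of Trac, Cd3e, Cd4 and Cd8a on log axes, with 1 point per tumour and a line at the mean of each group of 3; orange marks combinations with HLX53, blue other antibody groups and grey vehicle, which stands at the right. The pembrolizumab with tiragolumab tumours of T2106 lie below vehicle for all 4 genes, and the 10 mg/kg tumours lie above it.

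Among kinases and cytosolic adaptors, 2 of 8 rose, against 23.4% of all genes called higher. Lcp2, the adaptor SLP-76, had 66.03, 31.0 and 52.2 FPKM in the 10 mg/kg tumours and 12.3, 14.5 and 17.0 FPKM in vehicle tumours (log2 fold change 1.68 ± 0.47, limma adjusted p = 0.0166). Skap1, an adaptor linking the receptor to integrin adhesion, had 8.75, 3.54 and 6.84 FPKM with treatment and 1.55, 0.998 and 3.14 FPKM with vehicle (log2 fold change 1.54 ± 0.52, limma adjusted p = 0.0309). Neither gene overlapped between groups. The kinases Lck and Zap70, the kinase Prkcq (protein kinase C theta), the adaptors Fyb and Sh2d1a (SAP) and Themis had log2 fold changes of 1.04 to 1.42 and did not pass, with limma adjusted p from 0.0533 to 0.168.

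Of the transmembrane adaptors and negative regulators, Lat and Ptprcap rose among 4 tested, against 23.4% of all genes called higher. Lat, the scaffold phosphorylated by Zap70, had 13.4, 4.67 and 11.1 FPKM with treatment and 1.72, 1.78 and 3.35 FPKM with vehicle (log2 fold change 1.81 ± 0.62, limma adjusted p = 0.0316). Ptprcap, a partner of the phosphatase CD45, had 26.8, 11.2 and 21.7 FPKM with treatment and 5.36, 7.74 and 7.29 FPKM with vehicle (log2 fold change 1.41 ± 0.53, limma adjusted p = 0.0455). Both genes were separate between the groups. Sit1, an inhibitory adaptor, and Ubash3a, a suppressor of receptor signalling, had log2 fold changes of 1.15 ± 0.46 and 0.98 ± 0.48 and did not pass (limma adjusted p = 0.0553 and 0.103).

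Of the surface molecules 4 of 5 passed, against 23.4% of all genes called higher. The roles were not compared by a test. Thy1 had 162, 74.1 and 154 FPKM in the 10 mg/kg tumours and 19.9, 45.6 and 22.0 FPKM in vehicle tumours (log2 fold change 2.15 ± 0.54, limma adjusted p = 0.0128). Cd2, an adhesion molecule of T and natural killer cells, had 20.3, 7.08 and 17.3 FPKM with treatment and 2.87, 4.12 and 3.50 FPKM with vehicle (log2 fold change 1.83 ± 0.60, limma adjusted p = 0.0281). For both, replicate 2 of the treated group was the lowest of the 3 and still above all vehicle tumours. Cd6, a receptor at the contact with the presenting cell, had 4.65, 1.64 and 3.94 FPKM with treatment and 1.26, 0.522 and 1.01 FPKM with vehicle (log2 fold change 1.39 ± 0.54, limma adjusted p = 0.0481). Slamf6, a self-binding receptor that signals through Sh2d1a, had 8.15, 1.85 and 5.65 FPKM with treatment and 0.878, 1.11 and 1.62 FPKM with vehicle (log2 fold change 1.58 ± 0.59, limma adjusted p = 0.0426). Replicate 2 lay just above the highest vehicle tumour for Slamf6. Cd5, a damper of receptor signalling, had a log2 fold change of 1.22 ± 0.56 and did not pass (limma adjusted p = 0.0875).

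Gata3, a transcription factor of T helper cells that epithelial and fat precursor cells also use, had the smallest p of the 29. It had 3.29, 3.55 and 3.65 FPKM in the 10 mg/kg tumours, a narrow range, and 0.761, 1.51 and 0.916 FPKM in vehicle tumours (log2 fold change 1.38 ± 0.27, limma adjusted p = 0.00823). Bcl11b did not pass (log2 fold change 0.92 ± 0.39, limma adjusted p = 0.0664).

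Markers of other cell types moved in the same tumours. The summed FPKM of 11 adipocyte markers was 1811 to 2040 in the 10 mg/kg tumours and 54.0 to 368 in vehicle tumours, with 11 of 11 called higher. For 10 fibroblast markers the sums were 3336 to 5069 and 425 to 674 FPKM (10 of 10 higher), and for 10 macrophage markers 7925 to 13280 and 1893 to 3098 FPKM (10 of 10 higher). For 9 B cell markers the sums were 5.54 to 35.5 and 2.85 to 4.67 FPKM (4 of 5 tested higher), for 5 plasma cell markers 90.5 to 1750 and 9.84 to 30.8 FPKM (3 of 5 higher) and for 8 lymph node markers 69.3 to 237 and 48.4 to 78.8 FPKM (5 of 6 tested higher), with Glycam1 near 0 in all vehicle tumours. For 9 dendritic cell markers they were 113 to 154 and 7.36 to 13.8 FPKM (8 of 9 higher), and for 7 endothelial markers 145 to 202 and 43.9 to 86.0 FPKM (5 of 7 higher). For 6 epithelial markers the sums were 86.2 to 142 and 9.93 to 22.7 FPKM (6 of 6 higher), and for 8 natural killer markers 101 to 171 and 47.3 to 97.97 FPKM (2 of 7 tested higher), with Klra8 near 0 in both groups. Cell cycle genes fell, 11 of 11, with sums of 363 to 725 and 1003 to 1035 FPKM. Skeletal muscle markers summed to 1.58 to 3.14 and 2.16 to 3.19 FPKM. Near 0 means below 0.01 FPKM. For 9 skin keratinocyte markers the sums were 13.0 to 13.8 FPKM in the 10 mg/kg tumours and 2.28 to 3.24 FPKM in vehicle tumours (5 of 6 tested higher), with Krt1 near 0 in both groups and Krt15 and Dsg3 near 0 in vehicle tumours. Adipocyte, fibroblast, epithelial and keratinocyte markers were thus high in all 3 treated tumours, so surrounding tissue in the samples and treatment cannot be told apart here, and the part of these cell types in the members' rise was not tested. A fit with the adipocyte mean as a covariate is no test of it, since no vehicle tumour reached the treated level: in that fit 0 members passed and 6 of the 11 log2 fold changes turned negative, among them Cd4 at −0.21. The share of all genes called in that fit is not given here, so the loss cannot be read as particular to the members.

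The count of 11 depended on single tumours and settings. Among the settings, the estimation of array weights did not fully converge. The count was 2, 4 and 7 without vehicle replicates 1, 2 and 3, where 21.2%, 25.1% and 28.6% of all genes were called. Without treated replicates 1, 2 and 3 it was 1, 20 and 1, where 3.35%, 49.1% and 6.40% of all genes were called. It was 29 with only the 2 groups in the fit (51.3% of all genes), 29 with array weights (70.8%), 2 without a filter on low values (7.27%), and 1 without the libraries of low correlation (3.50%), which left replicate 2 alone in the treated group and assumed to vary like other tumours.

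Compared with pembrolizumab plus tiragolumab, the same 3 tumours given serplulimab and HLX53 at 10 mg/kg were higher for nearly the whole set. In limma 28 of 29 members rose, the exception being Zap70 (log2 fold change 1.58 ± 0.61, adjusted p = 0.0506), against 42.6% of all tested genes called and 25.8% called higher. All 29 were separate between the groups, against 34.4% of all genes separate upward. The median log2 fold change was 2.00 over the members and −0.02 over all genes. Cd3g, the gamma chain, had 40.1, 16.1 and 29.5 FPKM with serplulimab and HLX53 and 2.74, 1.44 and 3.05 FPKM with pembrolizumab and tiragolumab, a log2 fold change of 3.27 ± 0.72 (limma adjusted p = 0.00786). Cd8b1 had 17.2, 7.52 and 13.6 FPKM in the first of these groups and 0.804, 0.510 and 1.01 FPKM in the pembrolizumab and tiragolumab tumours (log2 fold change 3.33 ± 0.74, limma adjusted p = 0.00817). The lowest tumour given serplulimab and HLX53 had several times the highest value of the other group for both genes. By role the median log2 fold change was 3.33 over coreceptors, 2.80 over receptor and CD3 chains, 2.20 over surface molecules, 1.88 over transmembrane adaptors, 1.68 over kinases and adaptors and 1.45 over the transcription factors.

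Markers of most other cell types differed here too. The adipocyte sums were 1811 to 2040 FPKM in the 10 mg/kg tumours and 54.9 to 65.8 FPKM with pembrolizumab and tiragolumab (11 of 11 called higher; Lep near 0 in all of the second group), the fibroblast sums 3336 to 5069 and 400 to 510 FPKM (9 of 10 higher) and the macrophage sums 7925 to 13280 and 1753 to 2503 FPKM (9 of 10 higher). Dendritic sums were 113 to 154 FPKM with serplulimab and HLX53 and 5.91 to 6.42 FPKM with pembrolizumab and tiragolumab (9 of 9 higher), plasma cell sums 90.5 to 1750 and 6.74 to 9.34 FPKM (4 of 5 higher) and endothelial sums 145 to 202 and 40.6 to 44.1 FPKM (7 of 7 higher). Epithelial sums were 86.2 to 142 and 10.9 to 23.4 FPKM (6 of 6 higher) and keratinocyte sums 13.0 to 13.8 and 1.85 to 2.38 FPKM (5 of 6 tested higher). Natural killer sums overlapped, at 101 to 171 and 68.8 to 124 FPKM (2 of 7 tested higher). The part of these cell types was not tested and cannot be told apart from treatment. In the fit with the adipocyte covariate, whose levels do not overlap between these groups, 0 members passed and 17 of the 28 log2 fold changes turned negative. The share of all genes called in that fit is not given here either. The count of 28 members became 22, 17 and 16 without pembrolizumab and tiragolumab replicates 1, 2 and 3, where 27.7%, 20.4% and 20.3% of all genes were called. It was 7, 29 and 13 without serplulimab and HLX53 replicates 1, 2 and 3 (10.8%, 48.4% and 15.6% of all genes). It was 14 with no filter (8.28%) and 3 without the low-correlation libraries (5.81%).

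**Figure D3:**
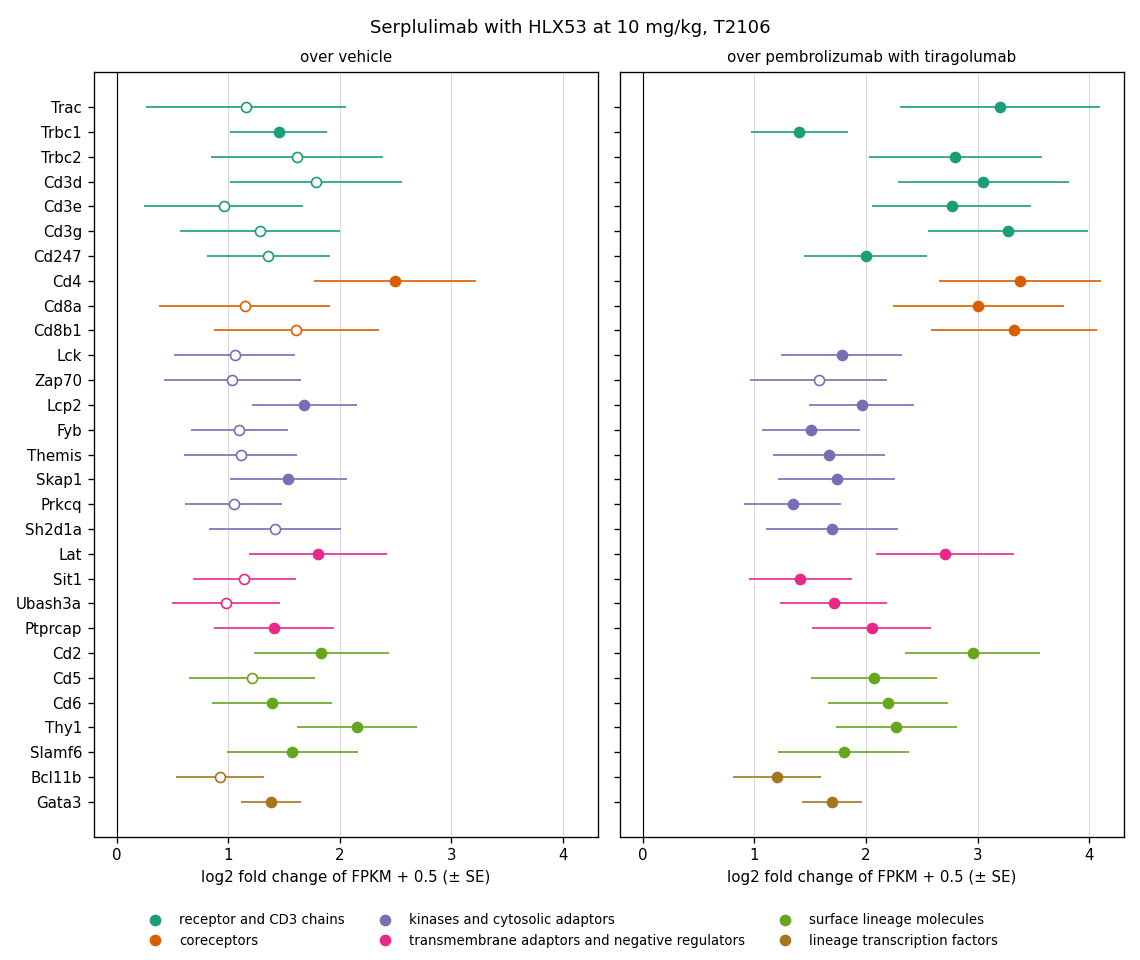
Log2 fold change of FPKM + 0.5 with its SE for the 29 tested members in tumours given serplulimab with HLX53 at 10 mg/kg, over vehicle at the left and over pembrolizumab with tiragolumab at the right, coloured by role; filled points passed an adjusted p of 0.05. All points lie right of 0, with 11 filled at the left and 28 at the right.

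Pembrolizumab with tiragolumab was the group given in both experiments in which the receptor genes were low. In T2106, 19 of 29 members were lower in every treated tumour than in every vehicle tumour, against 16.4% of all tested genes separate downward. In T2215, with other tumours and another vehicle group, 14 of 27 members were lower without overlap, against 11% of all genes. Of 27 members tested in both tables, 18 and 14 were on these lists and 11 on both, which is 61.1% of the T2106 list and 78.6% of the T2215 list. Over all 14646 genes tested in both the shares were 19.8% and 29.6%, and no test of the members' overlap was made. The 11 were Trac, Trbc2, Cd3d, Cd3e, Cd3g, Cd8a, Cd8b1, Lck, Themis, Ubash3a and Ptprcap. The median log2 fold change was −0.64 in T2106 and −1.01 in T2215, against −0.06 and −0.03 over all genes. No member passed the adjusted threshold of limma in either table, where 0% of all genes in T2106 and 0.0134% in T2215 were called. At an unadjusted p under 0.05, 5 of 29 members were lower in T2106, against 3.12% of all genes, and 11 of 27 in T2215, against 3.71%.

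Cd3e had 0.971, 0.511 and 0.725 FPKM with pembrolizumab and tiragolumab in T2106, against 3.74, 3.55 and 4.06 FPKM with vehicle. In T2215 it had 0.505, 0.315 and 1.38 FPKM with the combination and 5.82, 1.70 and 4.02 FPKM with vehicle. The highest treated tumour was below the lowest vehicle tumour in each experiment, and the log2 fold changes were −1.81 ± 0.71 and −1.78 ± 0.75 (limma adjusted p = 0.923 and 0.9999). Cd8a had 1.36, 0.517 and 1.12 FPKM in treated tumours of T2106 and 5.84, 2.996 and 6.08 FPKM in vehicle tumours. In T2215 the values were 0.337, 0.205 and 1.29 FPKM with treatment and 8.29, 1.95 and 5.84 FPKM with vehicle. Cd8a lay below the vehicle range in every treated tumour of both tables, with log2 fold changes of −1.86 ± 0.77 and −2.34 ± 0.95 (limma adjusted p = 0.937 and 0.9999). Trac had 2.87, 1.13 and 1.16 FPKM with treatment and 8.28, 8.47 and 7.57 FPKM with vehicle in T2106, and 1.56, 1.002 and 3.78 FPKM with treatment and 12.7, 4.03 and 10.6 FPKM with vehicle in T2215.

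Medians by role spanned a wide range. In T2106 the median log2 fold change of this combination over vehicle was −1.72 over coreceptors and −1.27 over receptor and CD3 chains, and −0.35 over kinases and cytosolic adaptors. In T2215 these medians were −1.86, −1.83 and −0.92. Lcp2 had 13.4, 12.7 and 9.64 FPKM with treatment and 12.3, 14.5 and 17.0 FPKM with vehicle in T2106, and the groups overlapped. Thy1 overlapped as well, with 27.9, 21.9 and 25.6 FPKM in treated and 19.9, 45.6 and 22.0 FPKM in vehicle tumours of T2106. Trbc1 had 12.9, 8.21 and 10.4 FPKM with treatment and 7.92, 7.17 and 17.3 FPKM with vehicle in T2106, but 2.10, 2.52 and 5.99 FPKM with treatment and 16.3, 10.1 and 12.5 FPKM with vehicle in T2215. Its groups overlapped in T2106 and not in T2215. Tested directly, no member's fold change for this combination differed between the experiments, with 0 of 14646 genes called and a smallest unadjusted p of 0.0790 among 27 members.

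Sums of other marker lists were lower, higher or overlapping with this combination, and 0 of their genes were called. Macrophage sums were 1753 to 2503 FPKM with treatment and 1893 to 3098 FPKM with vehicle in T2106, and 2467 to 3205 and 2460 to 3216 FPKM in T2215. Fibroblast sums were 400 to 510 and 425 to 674 FPKM in T2106, and 755 to 1501 and 614 to 1391 FPKM in T2215. Natural killer sums were 68.8 to 124 FPKM with treatment and 47.3 to 97.97 FPKM with vehicle in T2106, but 12.1 to 30.7 and 62.0 to 108 FPKM in T2215. The 8 markers of gamma delta T and innate lymphoid cells summed to 232 to 276 FPKM with treatment and 68.6 to 152 FPKM with vehicle in T2106, and to 104 to 142 and 44.97 to 113 FPKM in T2215. Without overlap in T2106, dendritic sums were lower (5.91 to 6.42 FPKM with treatment and 7.36 to 13.8 FPKM with vehicle), as were plasma cell sums (6.74 to 9.34 and 9.84 to 30.8 FPKM) and cell cycle sums (743 to 894 and 1003 to 1035 FPKM), and cytotoxic effector sums were higher (157 to 229 and 95.4 to 155 FPKM). In T2215 dendritic sums were 10.2 to 42.7 FPKM with treatment and 14.1 to 36.2 FPKM with vehicle, plasma cell sums 3.29 to 25.7 and 21.4 to 57.9 FPKM and cell cycle sums 718 to 803 and 795 to 1090 FPKM. All 3 overlapped there, and cytotoxic effector sums were lower without overlap, at 28.6 to 68.7 FPKM with treatment and 105 to 174 FPKM with vehicle. The part of these markers was not tested. Replicate 3 of the combination in T2215 held skeletal muscle RNA, with a marker sum of 204 FPKM against at most 2.82 FPKM in replicates 1 and 2, and without it 27 of 27 members were lower without overlap, against 25.6% of all genes. With array weights, whose estimation did not fully converge, 14 of 29 members in T2106 (5.45% of all genes called) and 17 of 27 in T2215 (7.58%) passed.

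**Figure D4:**
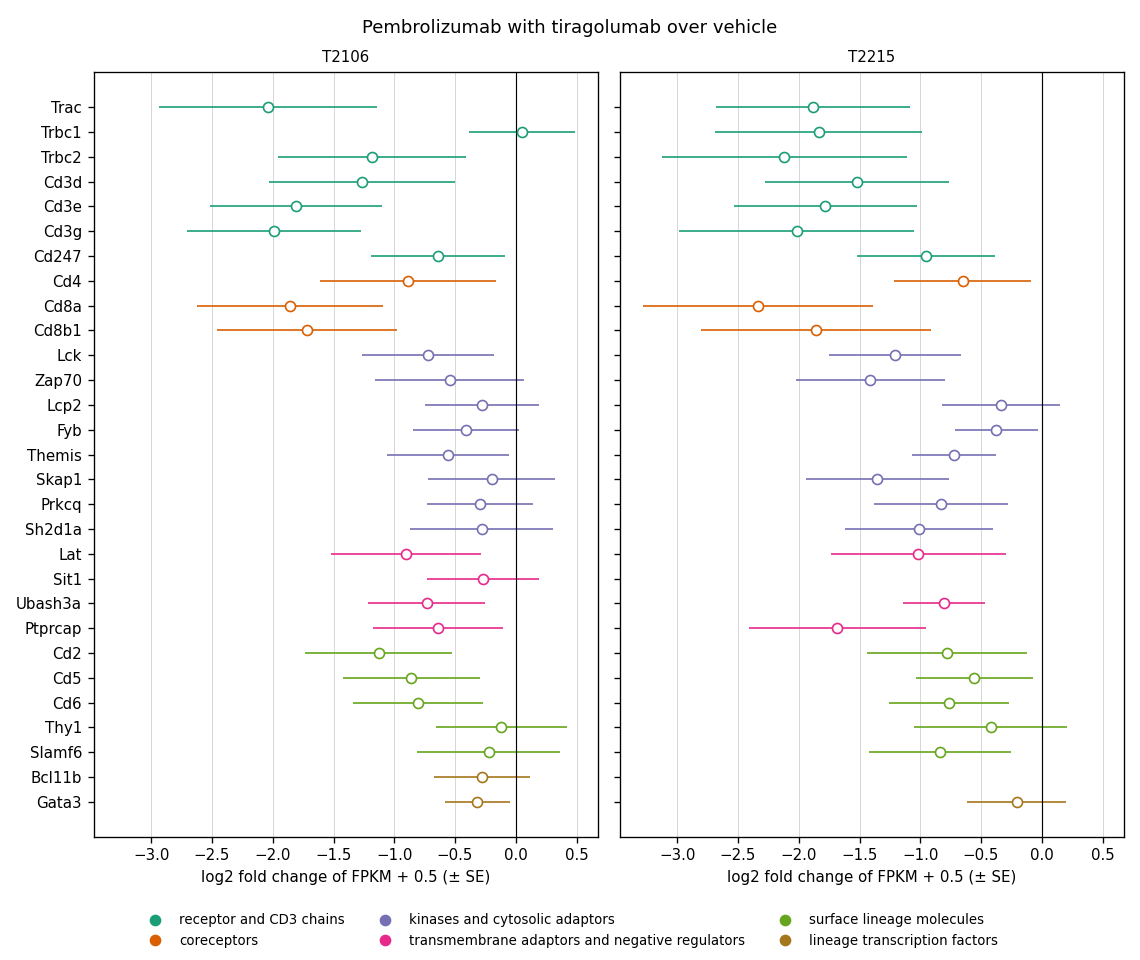
Log2 fold change of FPKM + 0.5 with its SE for pembrolizumab with tiragolumab over vehicle, in T2106 at the left (29 members) and T2215 at the right (27 members), coloured by role; open points did not pass an adjusted p of 0.05. Trac, Cd3g, Cd3e and Cd8a lie between −2.34 and −1.78 in both panels, and Lcp2, Thy1 and Gata3 lie between −0.42 and −0.12.

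The other groups of T2106 were spread widely. With serplulimab and HLX53 at 5 mg/kg, all 29 fold changes over vehicle were positive, against 43.3% of all genes, with a median log2 fold change of 0.85, but 0 members passed in limma (1.02% of all genes called) and 0 were separate from vehicle, against 5.84% of all genes separate upward and 16.3% downward. At an unadjusted p under 0.05 there was 1 member, Thy1, against 8.94% of all genes higher. Cd3e had 5.74, 21.3 and 1.07 FPKM in these tumours, so that replicate 2 was above and replicate 3 below every vehicle tumour. Without replicate 3, 25 of 29 members passed, as did 40.4% of all genes. Replicate 2 had the highest level in T2106 for 22 of 30 members, an adipocyte marker sum of 2007 FPKM and a skeletal muscle sum of 58.6 FPKM, where replicates 1 and 3 had adipocyte sums of 313 and 50.1 FPKM. Serplulimab alone and HLX53 alone gave 0 members called (0% and 0.00664% of all genes), 0 members at an unadjusted p under 0.05 and median log2 fold changes of 0.20 and 0.14. Cd5 was lower than vehicle without overlap in the HLX53 tumours, as were 10.3% of all genes.

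In T2215, no member passed the adjusted threshold in any of the 14 comparisons, in which 0% to 0.0134% of all genes were called (0.00671% for pembrolizumab with HLX53). Serplulimab with HLX53 over vehicle gave positive fold changes for 27 of 27 members, against 45% of all genes, with a median log2 fold change of 0.39, and 0 members were separate or had an unadjusted p under 0.05. With array weights, whose estimation did not fully converge, 17 of 27 passed, as did 61.7% of all genes. Cd3e had 4.65, 6.65 and 2.17 FPKM with this combination, against 5.82, 1.70 and 4.02 FPKM with vehicle, and the groups overlapped. Replicate 2, a library of low correlation with the others, had the highest level of T2215 for 17 of 30 members and an adipocyte marker sum of 4031 FPKM, against 490 and 115 FPKM in replicates 1 and 3. Whether the effect of serplulimab and HLX53 differed between the experiments was tested by a difference of fold changes over 14646 genes. It gave 0 genes called in limma, with a smallest unadjusted p of 0.0518 among 27 members, in a comparison of the 10 mg/kg groups. The members' differences had SEs of 0.51 (Gata3) to 1.35 (Trbc2) on the log2 scale, so a lack of calls does not show equal effects.

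Set against pembrolizumab with tiragolumab within T2215, serplulimab with HLX53 was higher for all 27 members by fold change, against 48.3% of all genes, with a median of 1.44 on the log2 scale. At an unadjusted p under 0.05, 25 of 27 were higher, against 11.6% of all genes, and 19 of 27 were separate upward, against 10.8%. The smallest limma adjusted p of a member was 0.222. With array weights, whose estimation did not fully converge, 27 of 27 members passed, as did 64.1% of all genes. Trbc2 had 30.4, 37.6 and 10.4 FPKM with serplulimab and HLX53 and 2.18, 2.54 and 7.00 FPKM with pembrolizumab and tiragolumab. These groups did not overlap, and the log2 fold change was 2.57 ± 1.01 (limma adjusted p = 0.222).

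Averaged over PD-1 antibody levels, the 9 tumours of the HLX53 arms were set against the 9 of the tiragolumab arms. All 27 members had positive fold changes, against 45.2% of all genes, with a median of 0.85 on the log2 scale, and 22 had an unadjusted p under 0.05, against 11.1% of all genes higher. None passed after adjustment, with a smallest limma adjusted p of 0.155. Cd3e ranged between 1.39 and 6.65 FPKM (median 2.33) in the HLX53 arms and between 0.315 and 3.62 FPKM (median 0.560) in the tiragolumab arms. Cd8a ranged between 0.889 and 8.69 FPKM (median 3.05) in the HLX53 arms and between 0.205 and 5.32 FPKM (median 0.431) in the tiragolumab arms. The ranges overlapped, and the highest tiragolumab tumour for both genes was replicate 2 of the single-agent group. The log2 fold changes were 1.22 ± 0.43 for Cd3e and 1.43 ± 0.55 for Cd8a (limma adjusted p = 0.155 for each). With array weights, whose estimation did not fully converge, 26 of 27 members passed, as did 28.6% of all genes.

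No member passed with any single agent of T2215, and the median log2 fold changes of the members were negative, at −0.33 to −0.80. With pembrolizumab alone, 13 of 27 members were lower than vehicle without overlap, against 8.90% of all genes, and 1 had an unadjusted p under 0.05, against 0.691%. The median log2 fold change was −0.80. Cd3e had 0.913, 1.45 and 0.774 FPKM with pembrolizumab, all below the lowest vehicle tumour at 1.70 FPKM. With tiragolumab alone the median was −0.73 and 1 member, Cd4, was separate downward, against 4.67% of all genes. There 1 member had an unadjusted p under 0.05 and was lower, against 0.456% of all genes. Serplulimab alone, with a median of −0.79 and 0 members separate, had tumours at both ends: Cd3e was 0.212, 0.551 and 8.24 FPKM, and replicate 3 held the highest Cd3e, Cd8a and Trbc1 levels of T2215. Replicate 1 of that group had a skeletal muscle marker sum of 15790 FPKM and an adipocyte sum of 3014 FPKM beside the lowest Cd3e of the table. HLX53 alone, serplulimab with tiragolumab and pembrolizumab with HLX53 had median log2 fold changes of −0.33, −0.52 and −0.05 with 0 members separate. Without its replicate 2, which held muscle and skin markers, serplulimab with tiragolumab had 12 of 27 members lower without overlap, against 10.7% of all genes. No member had an unadjusted p under 0.05 with serplulimab alone or in these 3 groups. The class averages gave medians, again with 0 members at an unadjusted p under 0.05, of −0.08 for any PD-1 antibody minus none, 0.10 for any TIGIT antibody minus none and 0.35 for serplulimab arms minus pembrolizumab arms. The interaction of the antibody classes was positive for 27 of 27 members, against 60.8% of all genes (median 1.07), with 6 at an unadjusted p under 0.05, against 0.671% of all genes.

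The members varied together across tumours. Over the 18 tumours of T2106, the correlation of a member with the mean of the other tested members had a median of 0.960, and 26 of 29 were at 0.9 or more. Over the 27 tumours of T2215 the median was 0.950, with 19 of 27 at 0.9 or more. After each group's mean was taken off, the medians were 0.962 and 0.946. These are descriptions, since the members share libraries and group differences. Gata3 followed the others least in both experiments, at 0.803 and 0.568.

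Several members that followed less closely correlated with other lists of genes. Prkcq had a correlation of 0.591 with the other members over 27 tumours of T2215, where replicate 1 of serplulimab had 7.38 FPKM, the highest of the table, beside 0.212 FPKM of Cd3e. Over the 24 tumours without skeletal muscle RNA the correlation of Prkcq with the other members was 0.984. Gata3 correlated at 0.939 and 0.843 with the mean of the adipocyte markers in T2106 and T2215. For Thy1 the correlation with fibroblast markers was 0.9005 and 0.848, beside 0.909 and 0.766 with the other members and 0.926 and 0.727 with macrophage markers. For Lcp2 the correlation with macrophage markers was 0.971 and 0.870. Cd4 correlated with macrophage markers at 0.972 and 0.866, beside 0.939 and 0.852 with the other members. Trbc1 correlated with natural killer markers at 0.925 and 0.955, more than with the other members in both tables (0.833 and 0.882). So did Sh2d1a, at 0.951 and 0.928 with natural killer markers and 0.878 and 0.903 with the other members.

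Trbc1 and Trbc2 are alternative beta chain constant regions, 6848 bases apart on chromosome 6, whose longest annotated transcripts were 84.9% identical over 691 aligned bases with an identical run of 259 bases. Reads from the shared stretch could be counted for either gene, so their split is uncertain. The ratio of Trbc1 to Trbc2 was 1.65, 2.01 and 1.93 with pembrolizumab and tiragolumab in T2106, against 0.640, 0.702 and 0.932 with vehicle. In T2215 it was 0.963, 0.992 and 0.855 with that combination and 0.520, 1.28 and 0.678 with vehicle. The groups were separate in T2106 and overlapped in T2215.

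**Figure D5:**
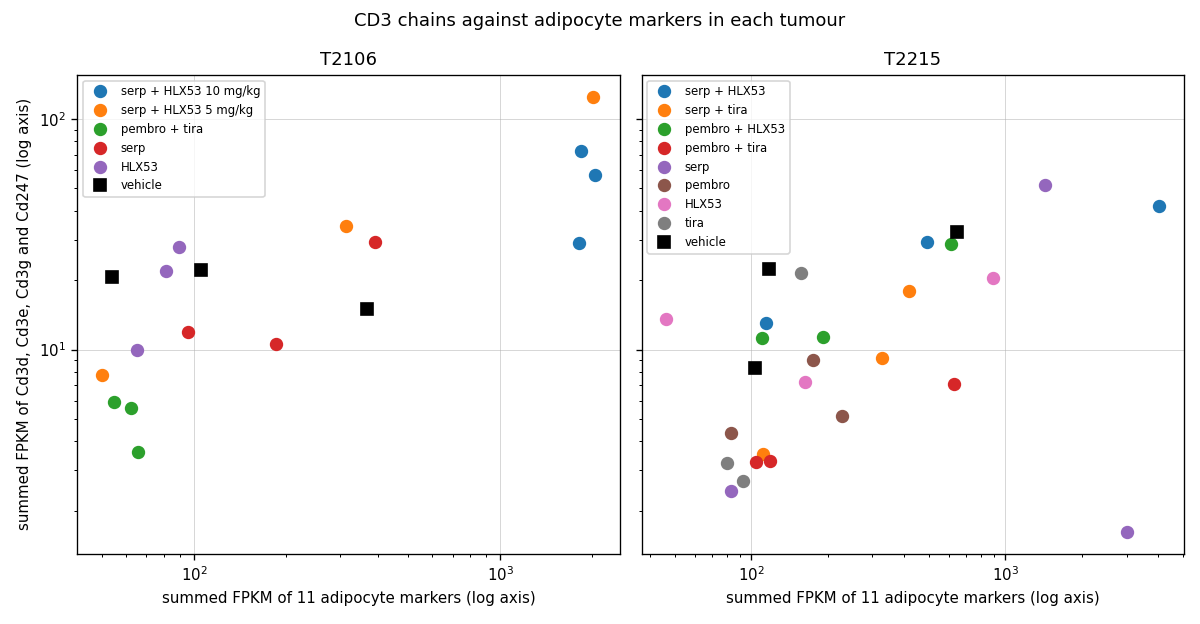
Summed FPKM of the 4 CD3 chains against summed FPKM of 11 adipocyte markers on log axes, with 1 point per tumour coloured by group and vehicle as black squares. The 10 mg/kg tumours of T2106 stand at the right between 1811 and 2040 FPKM of adipocyte markers, and a serplulimab tumour of T2215 stands at 3014 FPKM with the lowest CD3 sum, 1.61 FPKM.

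The CD3 chains and adipocyte markers correlated across tumours. Over the 18 tumours of T2106 the correlation of the 4 CD3 chains with the adipocyte mean was 0.751 (Cd3g) to 0.869 (Cd247), and over the 27 of T2215 it was 0.452 (Cd3g) to 0.590 (Cd3d), as a description of values from shared libraries. The link was not particular to adipocytes. Each chain correlated more with the macrophage mean, at 0.836 (Cd3e) to 0.924 (Cd247) in T2106 and 0.485 (Cd3g) to 0.632 (Cd3d) in T2215. With the natural killer mean the range was 0.704 (Cd3e) to 0.808 (Cd3d) in T2106 and 0.817 (Cd247) to 0.870 (Cd3e) in T2215. The highest CD3 sum, 125 FPKM, was in replicate 2 of the 5 mg/kg group at an adipocyte sum of 2007 FPKM. In T2106 the 3 tumours given serplulimab and HLX53 at 10 mg/kg had CD3 sums of 72.8, 29.1 and 57.1 FPKM at adipocyte sums of 1832, 1811 and 2040 FPKM. Vehicle tumours had CD3 sums of 20.6, 14.9 and 22.0 FPKM at adipocyte sums of 54.0, 368 and 105 FPKM, with the lowest CD3 sum at the highest adipocyte sum. Pembrolizumab with tiragolumab in T2106 had adipocyte sums close to those of vehicle replicate 1, at 54.9, 65.8 and 62.5 FPKM, and CD3 sums of 5.92, 3.58 and 5.57 FPKM.

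Outside the set, the genes most like the mean of the members over the 27 tumours of T2215, after group means were taken off, included Tbx21, H2-Eb1, Tbc1d10c, Ltb, Gimap3, H2-Ab1, Ms4a4b, Gpr65 and H2-Aa, with correlations between 0.981 (Tbx21) and 0.966 (H2-Aa). Tbx21 encodes T-bet, a transcription factor of T helper 1 and natural killer cells, and H2-Eb1, H2-Ab1 and H2-Aa encode MHC class II chains. Over the 18 tumours of T2106 the same measure was 0.965 for Tbx21 and 0.995 for Gimap3. It was 0.564 for H2-Ab1, the lowest of these genes.

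Of 36 pathway partners, other components of receptor signalling, 22 rose and 1 fell over vehicle at 10 mg/kg in limma, against 23.4% of all genes called higher and 20.6% called lower, with a median log2 fold change of 1.10. Vav1, an exchange factor activated below Lcp2, had a log2 fold change of 1.85 ± 0.47 (limma adjusted p = 0.0132), and Coro1a, an actin regulator of leukocytes, one of 1.88 ± 0.50 (limma adjusted p = 0.0145). Nck1, Tec, Dgka and Grb2 followed by p-value, with log2 fold changes of 0.77, 1.45, 1.70 and 0.93. Sos1, a Ras exchange factor of most cell types, was the gene that fell, by 0.41 ± 0.14 on the log2 scale (limma adjusted p = 0.0278). Over pembrolizumab with tiragolumab, 26 of 36 rose and 1 fell, against 25.8% of all genes called higher, with a median of 1.26. The smallest p-values among those that rose were of Vav1, Nfatc2, Was, Csk, Fyn and Tec, with log2 fold changes of 2.07, 1.75, 1.96, 0.67, 1.46 and 1.62. In the other comparisons 0 partners passed. With pembrolizumab and tiragolumab over vehicle, the partners' median was −0.12 in T2106 and −0.26 in T2215, beside −0.64 and −1.01 for the members.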

How the data were processed

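Total RNA of 45 tumours was sequenced as 150-nucleotide read pairs. The authors deposited 1 table of log2 FPKM values per experiment, a unit stated in the tables' names and not in their columns, and the tables were treated as normalised separately. FastQC, Trimmomatic, Bowtie and STAR are listed without roles, per the submitters' processing notes, as are the genome builds GRCh37, hg19 and mm10; the program behind the FPKM values and the strand of counting are not given in the sources used here. Read depth is unknown, so no counting interval is given.

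The log was undone and tests used log2(FPKM + 0.5), a scale that understates changes of low genes. The minimum of 0.5 FPKM in 3 libraries left 15070 genes for testing in T2106 and 14914 in T2215. All groups of a table entered 1 linear model (limma 3.58.1, R 4.3.3, moderated with a mean trend) for 20 comparisons, with Benjamini-Hochberg adjustment over the tested genes and 0.05 as the threshold. A joint fit of both tables served only to test whether fold changes over the vehicle of the same table differed between experiments. The fit was tested on simulated data. The members, lists, comparisons and tests were chosen with earlier results of these data known. Per-tumour values were given for receptor chains, coreceptors and members that passed; partners, up to 6 by p-value in each direction; and the 10 most alike genes by correlation, leaving out gene models and antigen receptor segments (1 of the 10 is not reported here). Members chosen for their values to be printed in T2215 and with pembrolizumab and tiragolumab, where none passed, were picked after their values were seen. Alternatives were other pseudocounts, no filter, median centring, fewer groups, a replicate block, the adipocyte covariate, array weights and libraries left out; the 2 sets of libraries left out for muscle RNA or low correlation were added after seeing the data. Genes that overlap or resemble another can share reads. Gene positions are from GENCODE M21, in which all 30 members were found. Upstream sequences are from a set of RefSeq promoters that held 19 of the 30, which does not mean that RefSeq lacks the others.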

Additional observations from a re-analysis of the deposited data

How the results depend on the processing

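The median centring and the pseudocounts of 0.1 and 1 left every count of members called within 1.5 times its value in all 20 comparisons. The replicate numbers of the labels were not taken to pair tumours. After group means were taken off, 4 of 15 same-numbered pairs with vehicle in T2106 and 9 of 24 in T2215 correlated over 0.1. Pairs of differing numbers were not examined, so these counts cannot show whether tumours were paired. With the replicate number as a block, 8 members passed in serplulimab and HLX53 at 10 mg/kg over vehicle and 28 over pembrolizumab and tiragolumab, and 0 in all other comparisons. The share of all genes called with the block is not given here, so these counts stand without a background.

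For 10 mg/kg over vehicle (11 members) the count was 2 with no filter, which tests more genes, 0 with the adipocyte covariate, 29 with array weights, 29 with only the compared groups, 1 without low-correlation libraries, and 1 to 20 when tumours were left out in turn. Over pembrolizumab and tiragolumab (28 members) it was 14 with no filter, 0 with the covariate, 3 without low-correlation libraries and 7 to 29 with a tumour left out. At 5 mg/kg it was 0 to 25 with a tumour left out, and 0 with a tumour left out in all other comparisons. Array weights, whose estimation did not fully converge, raised counts from 0 to 4 (serplulimab), 14 (pembrolizumab and tiragolumab) and 26 (5 mg/kg) in T2106. In T2215 they raised them to 1 (tiragolumab), 17 (serplulimab and HLX53), 2 (serplulimab and tiragolumab) and 17 (pembrolizumab and tiragolumab) over vehicle, 27 (serplulimab and HLX53 over pembrolizumab and tiragolumab) and 26 (HLX53 arms over tiragolumab arms). Where the share of all genes called with array weights is given above, it was raised as well. The shares for the remaining array weight fits and for the covariate are not given here. These counts are therefore no result about the members alone. The causes were not tested.

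With the adipocyte covariate, log2 fold changes over vehicle turned negative for Slamf6 (−0.20), Ptprcap (−0.50), Lat (−0.11), Cd6 (−0.14), Cd2 (−0.29) and Cd4 (−0.21). Over pembrolizumab and tiragolumab they did so for Trbc2 (−0.13), Bcl11b (−0.55), Slamf6 (−0.47), Ptprcap (−0.39), Sit1 (−0.48), Lck (−0.65), Cd247 (−0.43), Cd3e (−0.26), Ubash3a (−0.17), Fyb (−0.48), Sh2d1a (−0.23), Trac (−0.84), Thy1 (−0.36), Cd5 (−0.28), Prkcq (−0.29), Themis (−0.30) and Cd4 (−0.061). In T2106 the 10 mg/kg tumours share an adipocyte marker level that 1 other tumour, of the 5 mg/kg group, reached, so covariate and treatment cannot be told apart there. Groups of 3 and unknown read depth limit what could be detected.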
